A study of Mus musculus with 2 samples.

Results

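In a library labelled as cultured macrophage colony progenitors of the mouse aorta, 152 fibroblasts passed a limit on Crabp1 and Dlk1 RNA and are described here. They were 152 of 3575 fibroblasts (4.25%, exact Clopper-Pearson 95% interval 3.61 to 4.97%), among 33964 barcodes that passed quality filters and 34813 deposited. The quality filters asked for 500 genes, for 1000 unique molecular identifiers (UMIs, each marking 1 captured RNA molecule) and for no more than 10% mitochondrial UMIs. A fibroblast had at least 0.3% of its gene UMIs from the matrix genes Col1a1, Col1a2, Col3a1 and Dcn, under 1% from the mast cell protease genes Cpa3 and Cma1, and under 0.1% from the complement genes C1qa, C1qb and C1qc of macrophages. Of these cells, those with at least 200 UMIs of Crabp1 and Dlk1 together per 1000000 gene UMIs (CPM), and under 200 CPM of the adipocyte hormone gene Adipoq, were taken, and the other 3423 fibroblasts served for comparison. The members were thus chosen by their own Crabp1 and Dlk1 values, and those values are given as a description only. Levels are CPM of summed counts throughout, and a ratio of 2 either way is called a 2-fold difference.

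All cells came from 1 gene expression library, so there is no replicate, no test and no p-value, and every interval covers counting error only. Per the labels, dorsal aorta from 2 C57BL/6J mice, male and 12 weeks old, was freed of perivascular fat and digested with LiberaseTM, an enzyme blend. The released cells were cultured in viscous methylcellulose for 14 days, where each progenitor that divides leaves a colony, and macrophage colonies (CFU-M) were dispersed and sorted for cells that exclude the dye DAPI. Suspensions carried MULTI-seq tags, DNA oligonucleotides anchored in the membrane by a lipid, so that they could be pooled before droplets were made. No label separates the 2 mice within the library, and no genotype or drug was varied. Culture limits the fibroblasts as a model of those in the vessel wall. The labels do not say what the tagged suspensions were, so whether the fibroblasts grew beside the macrophage colonies is not known.

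Fibroblasts make and remodel the collagenous matrix of the vessel wall, chiefly in its outer layer, the adventitia. Dlk1 encodes a membrane protein with epidermal growth factor-like repeats, related to the Notch ligands, that is abundant in embryonic mesenchyme and in adipocyte precursors and holds back adipocyte differentiation. It lies in an imprinted gene cluster, in which Dlk1 and Dio3 are expressed mainly from the paternal allele, and the long noncoding RNAs Meg3, Rian and Mirg from the maternal one. Crabp1 encodes a cytosolic protein that binds retinoic acid, and its RNA marks mesenchymal populations in the embryo and in the skin.

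Crabp1 lies on the plus strand of chromosome 9 from 54764748 to 54773110 and Dlk1 on the plus strand of chromosome 12 from 109452823 to 109463336 (mm10, GENCODE M21). Meg3 follows Dlk1 on the same strand, from 109541001 to 109571726. The 3 promoter windows are shown because the cells were chosen by the first 2 genes and because Meg3, next to Dlk1, was the most abundant imprinted transcript in them. Each window holds 250 bases before and 50 bases after the start, from RefSeq on GRCm38.p6, at chr9:54764498-54764797, chr12:109452573-109452872 and chr12:109540746-109541045, all on the plus strand and written 5′ to 3′. Capitals mark 3 short motifs on either strand: TATAAA of the TATA box, the GC box GGGCGG, and the CCAAT box.
Crabp1: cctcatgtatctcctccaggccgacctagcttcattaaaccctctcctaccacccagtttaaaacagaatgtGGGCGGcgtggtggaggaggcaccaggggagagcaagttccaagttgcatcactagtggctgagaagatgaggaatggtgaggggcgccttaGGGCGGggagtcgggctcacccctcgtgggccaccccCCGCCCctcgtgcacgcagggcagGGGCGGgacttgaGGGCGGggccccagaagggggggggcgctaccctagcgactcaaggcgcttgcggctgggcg
Dlk1: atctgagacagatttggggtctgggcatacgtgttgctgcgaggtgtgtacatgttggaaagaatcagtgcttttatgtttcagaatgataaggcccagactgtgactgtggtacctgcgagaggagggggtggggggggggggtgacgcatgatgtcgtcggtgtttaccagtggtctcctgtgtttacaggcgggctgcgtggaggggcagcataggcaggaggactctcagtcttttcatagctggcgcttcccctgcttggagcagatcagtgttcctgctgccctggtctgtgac
Meg3: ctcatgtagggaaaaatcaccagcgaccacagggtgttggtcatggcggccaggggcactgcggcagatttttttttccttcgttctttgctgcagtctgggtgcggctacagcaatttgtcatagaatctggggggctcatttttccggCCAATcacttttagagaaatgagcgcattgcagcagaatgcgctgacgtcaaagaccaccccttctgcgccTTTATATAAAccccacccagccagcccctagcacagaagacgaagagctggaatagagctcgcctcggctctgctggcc
The Crabp1 window held 5 matches to GGGCGG and none to the other motifs, the Dlk1 window held none of the 3 motifs, and the Meg3 window (the first of its 2 entries) held 1 CCAAT and 2 overlapping TATAAA matches, 1 on each strand. Of 32851 promoter windows of the same length, 35.7% held GGGCGG, 37.4% CCAAT and 13.6% TATAAA. The windows held 17 CG dinucleotides for Crabp1, 9 for Dlk1 and 13 for Meg3, and 31.4%, 45.8% and 37.9% of all windows held as many or more. These are matches of letters and no evidence of bound factors.

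The name joins genes that few cells shared. Dlk1 alone reached 200 CPM in 124 of the 152 cells (81.6%, 74.5 to 87.4%), Crabp1 alone in 18 (11.8%, 7.17 to 18.1%), both in 6 (3.95%, 1.46 to 8.39%), and 4 cells passed only by the sum. The group was therefore mostly one of Dlk1 cells, and "Crabp1 and Dlk1 fibroblasts" is used below for the rule and not for cells with both RNAs. Over all fibroblasts, 479 had a Dlk1 UMI, 106 a Crabp1 UMI and 50 both. A Dlk1 UMI was present in 47.2% (37.4 to 57.1%) of the fibroblasts with a Crabp1 UMI and in 12.4% (11.3 to 13.5%) of those without, while 6 of the 24 cells with Crabp1 at 200 CPM also had Dlk1 at that level.

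Summed over the group, Dlk1 stood at 543 CPM (524 to 563), against 6.33 (5.86 to 6.83) in other fibroblasts. In single cells of the group it ran from 0 over a median of 318 to 5055 CPM. Crabp1 stood at 132 CPM (123 to 142) against 0.79 (0.63 to 0.98), with a median of 0 and a highest cell of 1843 CPM. After each cell was thinned to 10000 UMIs, Dlk1 was detected in 91.2% of the group, in 4.32% of other fibroblasts and in 1.00% of barcodes rich in mast cell RNA. Crabp1 was detected in 22.1%, 0.54% and 0.34%. The mast cell barcodes, with at least 2% of UMIs from Cpa3 and Cma1, stand for background from free RNA. Thinning kept 136 of the group's cells, 3146 other fibroblasts and 15468 mast cell barcodes, with median depths before thinning of 36137, 31252 and 16274 UMIs, and left out 16, 277 and 9538 shallower ones.

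The group is set by a limit of 200 CPM on a per-cell level, so it is a range of Crabp1 and Dlk1 levels. The lowest cell inside stood at 201 CPM and the highest outside at 197 CPM. In all, 121 fibroblasts lay within 100 CPM of the limit, 52 of the 152 cells had under 300 CPM, and 4 passed with 1 UMI and 13 with 2 to 4 UMIs. The Adipoq limit removed no cell that the Crabp1 and Dlk1 limit had admitted, and 6 cells of the group also had 200 CPM or more of the complement gene C7.

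**Figure D1:**
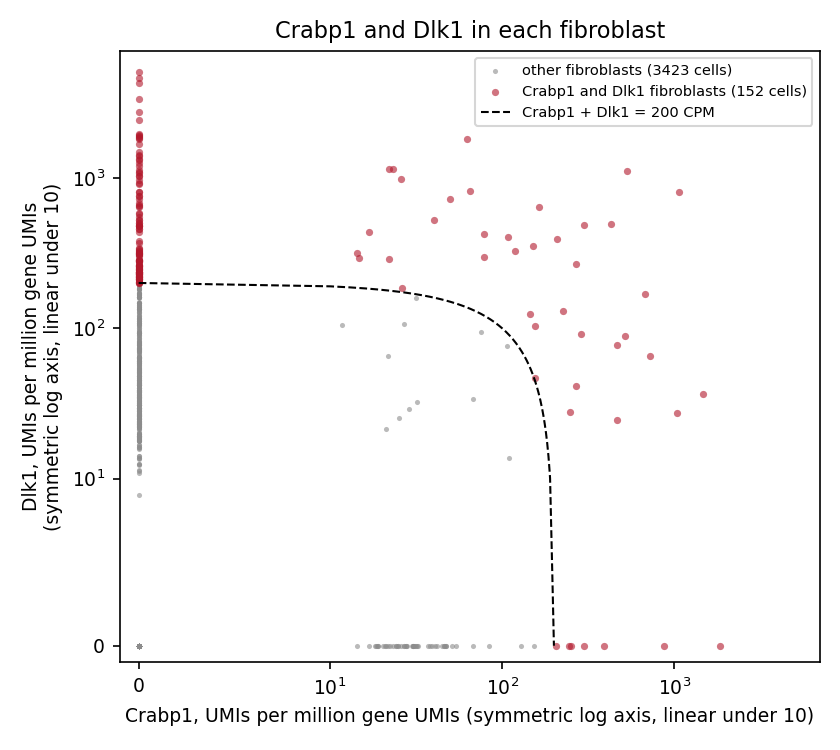
Each point is 1 fibroblast, with Crabp1 on the x axis and Dlk1 on the y axis, both in UMIs per 1000000 gene UMIs on symmetric log axes that are linear under 10; red points are the 152 cells at or above the dashed line (sum of 200), grey points the 3423 other fibroblasts. Most red points sit on the left edge, where Dlk1 is high and Crabp1 is 0, and few have both genes high.

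In quality measures the group lay close to other fibroblasts. Median depth was 33043 gene UMIs (2493 to 109244) against 29957, median genes detected 6077.5 against 5601, and median mitochondrial share 0.960% against 0.796%. The share of mast cell RNA from Cpa3 and Cma1 had medians of 0.0899% and 0.1004%. The doublet caller Scrublet, which called 3245 barcodes (9.32%) in the whole matrix, called 1 of the 152 cells and 50 of the other fibroblasts. The median share of the 4 matrix genes that define fibroblasts was 0.678% in the group and 1.402% in the others, so the cells lay nearer the lower limit of the class.

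Markers of other cell types were summed in the same way. The 8 mast cell markers summed to 3392 CPM in the group and 3643 in other fibroblasts, with ranges over cells of 461 to 20532 and 494 to 20106. Cpa3, a mast cell protease gene, stood at 893 CPM in the group, 962 in other fibroblasts and 17540 in mast cell barcodes, and the part of mast cell RNA in the ratios was not tested. The 8 macrophage markers summed to 39.4 CPM (0 to 643 over cells) and 74.2 (0 to 33550). The 8 endothelial markers summed to 20.8 (0 to 166) and 23.0 (0 to 1104), with Cdh5, Tie1 and Cldn5 at 0 UMIs in the group. Mural markers summed to 70.8 CPM (0 to 930) and 80.1 (0 to 5628), with Myh11 at 0.56 and Cnn1 at 0. Of 8 mesothelial markers the group had 0 UMIs of Msln, Upk3b, Lrrn4, Upk1b, Krt8 and Krt18, while Krt19, a keratin, stood at 20.2 CPM against 1.59 and was carried to 53.2% by 3 cells. Epithelial and lymphocyte markers summed to 1.11 and 0.37 CPM. Schwann cell markers summed to 23.8 CPM (0 to 214) against 30.1, and chondrocyte markers to 109 (0 to 971) against 71.8, nearly all from Sox9, with Acan at 0.

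The labels name male mice, yet many cells held RNA of Xist, the noncoding RNA made from the inactive X chromosome of female cells. Within the group 87 of 152 cells (57.2%, 49.0 to 65.2%) had an Xist UMI and no UMI of 4 Y-linked genes, 24 had the reverse, 32 had both and 9 neither. In other fibroblasts 55.6% (53.9 to 57.2%) had Xist alone. Xist stood at 831 CPM in the group and 765 in the others. Its source was not tested, and the counts of genes below are also given for cells with Xist alone.

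The tag counts, which the rule did not use, were higher for 1 tag. The matrix names 3 tags, Cafum, Matrigel and Macrophages, and the labels do not say what the suspensions behind them were. Matrigel tag UMIs had a median of 3212 per cell in the group (quartiles 1578 to 5282) against 1476 in other fibroblasts (984 to 2408), with a background of 548 over kept barcodes. With a tag called at 2 times its background (Cafum at 1.4 times), 110 of 152 cells (72.4%, 64.5 to 79.3%) had the Matrigel tag alone, against 2052 of 3423 other fibroblasts (59.9%, 58.3 to 61.6%). None of the 152 had the Cafum or the Macrophages tag alone, which allows a share of up to 1.97% when 3 cells are taken as the limit of a count of 0 (exact upper limit 2.40%). Of the 3423 others, 50 (1.46%) had the Cafum tag alone and 34 (0.99%) the Macrophages tag alone. Both shares lie below that limit, so the count of 0 shows no difference. Seen from the tags, 5.09% (4.1999 to 6.10%) of Matrigel-tagged fibroblasts and 2.55% (1.67 to 3.71%) of untagged ones met the rule. The group's share moved both ways with the barcodes kept. It was 79.4% among cells with at least 10000 UMIs. With the barcodes called by Scrublet left out, which kept 151 of the 152 cells, it was 68.2%. Tag backgrounds are taken over the kept barcodes, so the limits of the calls can move with them, also for cells that stay. The part of these limits in the changed shares was not tested. The part of depth in the difference was not tested.

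**Figure D2:**
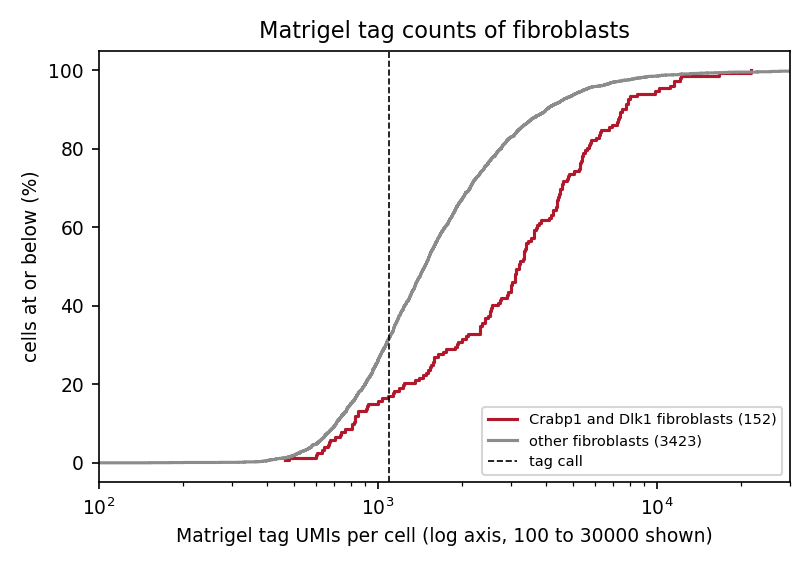
Cumulative share of cells (y axis, percent) with at most the given number of Matrigel tag UMIs (x axis, log scale), for the 152 Crabp1 and Dlk1 fibroblasts in red and the 3423 other fibroblasts in grey; the dashed line is the tag call at 2 times background. The red curve lies to the right, with medians of 3212 and 1476.

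The other markers that travel with the name were higher too, though they were picked from these same cells and support nothing. Ltbp1 encodes a protein that stores latent TGF-beta in the matrix, and it stood at 249 CPM (236 to 263) against 46.4 (45.1 to 47.7), a ratio of 5.36 (5.04 to 5.70). In thinned cells it was found in 60.3% of the group, 20.1% of other fibroblasts and 1.64% of mast cell barcodes. Tll1 encodes a tolloid-like protease that cleaves procollagens and the BMP antagonist chordin, and it stood at 53.3 CPM (47.3 to 59.8) against 15.7 (14.9 to 16.4). Its median cell had none, and 3 cells held 38.3% of its UMIs. Both genes stood above other fibroblasts in Crabp1-only and in Dlk1-only cells, with Ltbp1 at 298 (260 to 340) and 243 (228 to 259) CPM and Tll1 at 52.1 (37.1 to 71.2) and 54.9 (48.0 to 62.5).

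Across all genes, few differed by 2-fold. Of 8570 genes with a mean of at least 10 CPM over the 2 groups, 165 (1.93%) were higher and 139 (1.62%) lower in the Crabp1 and Dlk1 fibroblasts, and the median ratio of all tested genes was 1.02. The rule did not use 8560 of the tested genes, but the 165 include Crabp1 and Dlk1, by which the cells were chosen. Within cells of the Matrigel tag alone, 180 (2.1%) were higher and 182 (2.12%) lower, and these held 154 of the 165 and 115 of the 139. Among the 42 and 1371 cells without that tag alone, 158 (1.86%) were higher and 148 (1.74%) lower, holding 96 and 65 of the first lists. Cells with Xist alone gave 196 higher (2.29%) and 190 lower (2.22%) genes, of which 145 and 118 were on the first lists. Higher genes spanned more genome, with a median gene length of 95.3 kb against 30.0 kb for all tested genes and 26.3 kb for the lower ones. Whether intronic reads were counted is not given in the sources used here, and the part of gene length in these ratios was not tested.

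After Crabp1 and Dlk1, and leaving aside clone-type gene names, the largest ratio was that of Ptn, which encodes the heparin-binding growth factor pleiotrophin, at 65.6 CPM (58.9 to 72.8) against 2.29 (2.01 to 2.59), a ratio of 28.7 (24.3 to 33.9). It was an uneven signal, found in 18.4% of thinned cells of the group, 0.95% of other fibroblasts and 0.97% of mast cell barcodes, with 41.9% of its UMIs in 3 cells. Agtr2, the type 2 receptor for angiotensin II, stood at 75.03 CPM (67.9 to 82.7) against 3.28 (2.94 to 3.64), a ratio of 22.9. It was spread over more cells, detected in 30.1% of thinned cells against 1.78% and 0.26%. Agtr1b, a type 1 receptor for the same hormone, stood at 21.7 against 1.81 CPM, with 45.3% of its UMIs in 3 cells. The muscarinic acetylcholine receptor gene Chrm3 was the most abundant of the 13 genes with the highest ratios, at 238 CPM (225 to 251) against 28.7, and was detected in 42.6% of thinned cells against 9.22% and 0.87%. Chrm3 overlaps 2 predicted genes on its own strand in the annotation, whose reads could not be separated from it here. Edil3, a secreted integrin ligand, stood at 109 against 14.1 CPM.

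The rest of the highest ratios belonged to Dkk2, Peg3, Krt19, Galnt13, a glycosyltransferase gene, Col25a1, a transmembrane collagen gene, the cadherin genes Cdh18 and Pcdh15, and Csmd3. Of these, Pcdh15, Krt19, Cdh18, Col25a1, Galnt13 and Csmd3 had 50.7 to 63.8% of the group's UMIs in 3 cells. Without the Matrigel tag alone, Col25a1 had a ratio of 0.94, and with Xist alone 0.95, against 10.2 in all cells.

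The lowest ratios included 3 hemoglobin genes, Hba-a1, Hba-a2 and Hbb-bs, whose UMIs in other fibroblasts lay to 90.4 to 93.0% in 3 cells. Hba-a1 and Hba-a2 are near-identical copies, so the split of reads between them is uncertain. These ratios rested on few barcodes. Without the barcodes that Scrublet, a doublet caller, marked, the log2 ratio of Hba-a1 was -1.44 in place of -4.64, the log2 ratio of Hba-a2 was -0.67 in place of -3.63, and the log2 ratio of Hbb-bs was -0.51 in place of -3.44. Without the Matrigel tag alone the 3 ratios were 0.67, 0.67 and 1.33. Spock1, a matrix proteoglycan gene, stood at 1.11 CPM (0.41 to 2.43) against 23.4, a ratio of 0.048 (0.017 to 0.10). Ahsg, which encodes the plasma protein fetuin-A, stood at 10.6 against 118 CPM and was detected in 7.35% of thinned cells against 23.8%. The flavin monooxygenase gene Fmo2 was the most abundant of the 15 named genes with the lowest ratios. It stood at 81.7 CPM (74.3 to 89.7) against 337 (333 to 340), detected in 26.5% against 54.8% of thinned cells. Chl1, a neural cell adhesion gene, stood at 41.0 against 171 CPM, Cdh6, a cadherin gene, at 7.61 against 55.6, and Mt3, a metallothionein gene, at 9.29 against 56.3. Cxcl13, a B cell attractant, had 93.5% of the group's UMIs in 3 cells, and without the Matrigel tag alone its ratio was 1.22 in place of 0.19. Cd74, Abcc9, Ccn5, Pcolce2 and C4b completed the list, with ratios of 0.19 to 0.26.

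**Figure D3:**
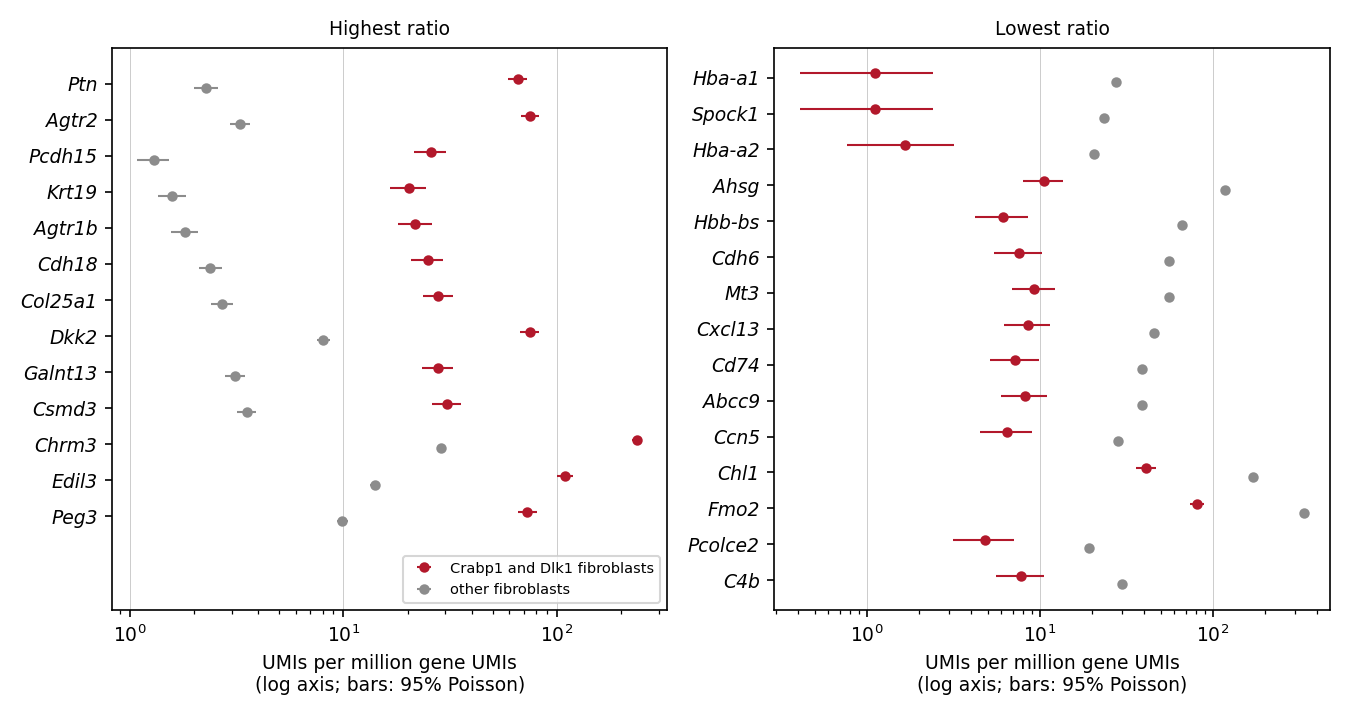
UMIs per 1000000 gene UMIs (x axis, log scale) of the genes with the highest (left) and lowest (right) ratios, leaving out Crabp1 and Dlk1; red points are the 152 Crabp1 and Dlk1 fibroblasts, grey points the 3423 others, bars are 95% Poisson intervals of the summed counts. Ptn and Agtr2 show the widest gaps on the left (65.6 against 2.29, and 75.03 against 3.28), and on the right Spock1 stands at 1.11 against 23.4.

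The listed imprinted genes were higher together, in a list written with earlier results of these data known. The list does not hold Dio3, an imprinted gene of the Dlk1 cluster that was tested and had a ratio of 0.84. Of 12 listed imprinted genes that were tested and not used by the rule, 7 passed 2-fold upward and none downward, all 12 had ratios above 1, and the median ratio was 2.89, beside 1.93% higher and a median of 1.02 over all genes. Of the 7, 3 follow Dlk1 on chromosome 12. Meg3 was the most abundant, at 1308 CPM (1277 to 1339) against 480 (476 to 484), and its quartiles over cells were 570 and 1819 CPM around a median of 1069, against a median of 297 in other fibroblasts. Rian, a host of small nucleolar RNAs, stood at 275 (261 to 289) against 82.1, and Mirg, a microRNA host, at 28.6 (24.3 to 33.5) against 8.48.

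The Dlk1 neighbourhood was not higher as a whole. Within 1 Mb of Dlk1, 26 genes are annotated and 10 were tested. Of the 10, 5 were higher, Dlk1 itself included, and 0 lower, beside 1.93% and 1.62% over all genes. Besides Dlk1, the 4 that passed 2-fold (Meg3, Rian, B830012L14Rik and Mirg) all lie on its strand within 276.9 kb, and B830012L14Rik stood at 93.4 against 25.3 CPM. At the far end of the imprinted cluster, Dio3, a thyroid hormone deiodinase gene, stood at 14.5 CPM (11.5 to 18.1) against 17.2 (16.4 to 18.0), and Dio3os at 8.91 (6.57 to 11.8) against 12.2. Upstream, Evl had a ratio of 1.46 (1.26 to 1.67), Yy1 of 1.06 (0.96 to 1.16) and Wars of 0.99 (0.76 to 1.26).

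The other 4 lie on other chromosomes. H19, a noncoding RNA of embryonic tissues on chromosome 7, stood at 567 CPM (547 to 587) against 133, with a median cell at 200 CPM, a highest cell at 17189 CPM and 24.8% of its UMIs in 3 cells. Cdkn1c, an inhibitor of cyclin-dependent kinases, stood at 132 (122 to 142) against 26.7, and Plagl1, a zinc finger gene, at 27.5 (23.2 to 32.3) against 8.97. Peg3, also a zinc finger gene, stood at 72.8 (65.8 to 80.4) against 9.92, with 33.7% of its UMIs in 3 cells. It was detected in 19.1% of thinned cells against 7.37%, and stood at 88.3 CPM in the 19 fibroblasts with 200 CPM or more of Adipoq. The 5 genes that did not pass were Igf2r at a ratio of 1.66 (1.55 to 1.77), Grb10 at 1.42, Ndn at 1.18, Sgce at 1.14 and Gnas at 1.09. Igf2, the fetal growth factor gene next to H19, had 4 UMIs in the group, or 0.74 CPM, and was below the filter. The count was 7 within the Matrigel tag alone, 6 without it and 7 with Xist alone.

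Meg3, Rian and Agtr2 stood higher in each successive class of the sum of Crabp1 and Dlk1, also among fibroblasts below the limit. These are summed levels of single classes, and the order was not tested. Meg3 stood at 442 CPM in the 3021 fibroblasts with no UMI of either gene, 694 in 314 cells above 0 and under 100 CPM, 951 in 69 cells from 100 to under 200, 1091 in 73 cells from 200 to under 400, 1232 in 45 cells from 400 to under 1000, and 1950 in 34 cells at 1000 CPM or more. Rian passed from 72.8 over 130 and 218 to 250, 255 and 365 CPM, and Agtr2 from 1.98 over 7.33 and 35.6 to 55.0, 67.2 and 135. H19, Cdkn1c and Peg3 were highest in the top class but did not follow the order throughout. H19 stood at 121, 182, 333, 499, 440 and 923 CPM, Cdkn1c at 25.4, 31.0, 62.5, 55.4, 107 and 354, and Peg3 at 9.03, 9.30, 36.0, 15.4, 39.5 and 263. Ltbp1 had its highest level, 282 CPM, between 400 and 1000, and stood at 203 in the top class. Median depth over the 6 classes ran from 29333 to 36162 UMIs without following that order. Downward, Col1a1, which the rule uses, passed from 3738 to 1517 CPM, the protease inhibitor gene Timp3 from 426 to 43.0, and Csmd1, a large gene for a membrane protein with complement-type domains, from 1480 to 138. Csmd1 was not level with the order throughout, at 464, 552 and 495 CPM in the middle classes.

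**Figure D4:**
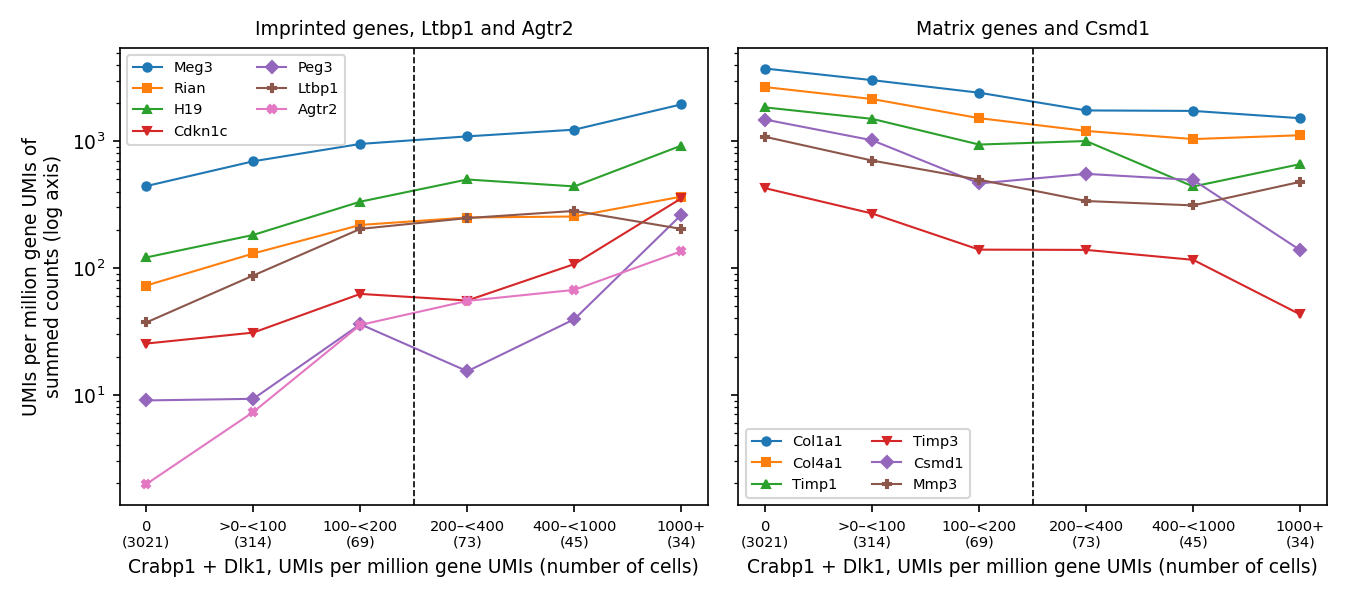
CPM of summed counts (y axis, log scale) of genes in fibroblasts split by the sum of Crabp1 and Dlk1 (x axis, CPM, number of cells in brackets); the dashed line is the limit of 200, with the Crabp1 and Dlk1 fibroblasts to its right. From the first class to the last, Meg3 goes from 442 to 1950 and Agtr2 from 1.98 to 135 on the left, and Timp3 from 426 to 43.0 on the right.

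The counts of the lists that follow stand beside 1.93% higher and 1.62% lower over all 8570 genes, of which 4687 had ratios above 1 and 3883 below. With lists of 6 to 25 genes, 1 gene is already a larger share than these, so a count of 0 or 1 says nothing of a list. Of 11 retinoid handling genes tested beside Crabp1, 1 passed 2-fold upward (1.93% over all genes) and none downward. It was Dhrs3, a retinal reductase, at 57.4 CPM (51.2 to 64.2) against 26.8. Aldh1a1, which makes retinoic acid, stood at 116 against 167 CPM, and the receptor genes Rarb and Rarg at 32.9 against 26.0 and 25.8 against 18.4. Cyp26b1, which degrades retinoic acid, was below the filter, with 94.3% of its UMIs in 3 cells. Of 7 Notch pathway genes tested, only the ligand gene Jag1 passed, downward (1.62% over all genes), at 10.6 CPM (8.02 to 13.7) against 27.3. The receptors Notch2 and Notch3 stood at 42.9 against 45.9 and 7.80 against 14.5, the nuclear effector Rbpj at 252 against 139, and the target Hes1 at 229 against 391.

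Of 23 latent TGF-beta genes, 3 passed upward (1.93% over all genes) and none downward, with a median ratio of 0.80. The counts were 4 and 0 within the Matrigel tag alone, 1 and 2 without it, 2 and 0 with Xist alone, and 2 and 8 in the Crabp1-only cells against other fibroblasts. One of the 3 was Ltbp1, a marker picked from these same cells, so its call supports nothing. The others were Ltbp4, at 24.0 against 11.7 CPM, and Fbn2, a fibrillin of developing tissue, at 64.4 (57.8 to 71.6) against 32.1, with ratios of 2.04 and 2.01. Without the barcodes called by Scrublet, the log2 ratio of Fbn2 was 0.9992, just under 2-fold. Fbn1, the main adult fibrillin, stood at 328 against 472, Ltbp2 at 88.6 against 89.6 and Ltbp3 at 54.4 against 68.0. The ligand genes Tgfb1, Tgfb2 and Tgfb3 had ratios of 0.87, 0.65 and 1.03.

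Among 19 BMP and tolloid genes, 4 passed upward and 2 downward (1.93% and 1.62% over all genes), with a median ratio of 0.89. Among the 4 was Tll1, again a marker picked from these same cells. It was joined by the BMP antagonist gene Grem1, at 180 CPM (169 to 192) against 64.9, by the ligand gene Bmp2, at 18.9 against 5.36, and by Gdf10, at 31.8 against 15.1. Among the lower ones was Pcolce2, an enhancer of procollagen cleavage, at 4.83 CPM (3.15 to 7.08) against 19.2. Bmp1, the tolloid family protease of most fibroblasts, stood at 66.9 against 121 CPM.

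Of 6 Wnt pathway genes tested, 3 passed upward (1.93% over all genes) and none downward, and all 3 encode secreted inhibitors or modulators. Dkk2 stood at 74.7 CPM (67.5 to 82.3) against 8.07, in 26.5% of thinned cells against 4.20% and 0.18% of mast cell barcodes. Sfrp1 stood at 76.7 (69.5 to 84.5) against 34.6, and Sfrp2 at 51.1 (45.2 to 57.5) against 21.8. The ligand gene Wnt5a stood at 38.8 against 20.7, Dkk3 at 84.5 against 70.1 and the agonist gene Rspo3 at 32.1 against 58.5. Within the Matrigel tag alone 2 of the 6 passed upward, without it 3 upward and 1 downward, and with Xist alone 1 upward, and the 33.2% of Sfrp1 UMIs in 3 cells stand beside this.

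Of 16 collagen genes not used by the rule, none passed upward and 4 downward (1.62% over all genes), 12 had ratios below 1, and the median ratio was 0.63. The count of lower collagens was 3 within the Matrigel tag alone, 1 without it and 4 with Xist alone. Basement membrane collagens led in abundance, with Col4a1 at 1136 CPM against 2586 and Col4a2 at 486 (468 to 505) against 1136. Col12a1 stood at 67.8 against 141 and Col14a1 at 11.0 against 24.7, while Col18a1, whose fragment is endostatin, stood at 149 (139 to 159) against 82.5. The fibroblast class is itself defined by collagen RNA and these cells lay low in it, and the part of that limit in the ratios was not tested.

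Of 25 matrix glycoprotein genes, 3 passed each way (1.93% and 1.62% over all genes), with 2 higher and 5 lower within the Matrigel tag alone, 2 each way without it and 3 each way with Xist alone. The proteoglycan gene Vcan, at 508 CPM (489 to 527) against 232, Ogn, at 88.2 (80.5 to 96.5) against 29.8, and the fibulin gene Efemp1, at 225 (212 to 238) against 112, were higher. Efemp1 lay at the limit, with a log2 ratio of 1.0005, and fell just under 2-fold (0.992) without the barcodes called by Scrublet. Periostin (Postn), at 126 (117 to 136) against 328, the microfibril gene Mfap5, at 520 (501 to 540) against 1148, and Prelp, at 6.31 against 16.3, were lower. Of 22 proteases and inhibitors, 1 was higher and 4 lower (1.93% and 1.62% over all genes), and 18 had ratios below 1. The lower ones were the stromelysin gene Mmp3, at 358 (342 to 374) against 1024, Timp1, at 763 (740 to 787) against 1784, Timp3, at 113 (104 to 122) against 401 and lying within Syn3 in the annotation, and the aggrecanase gene Adamts4, at 20.4 against 53.1. The higher one was again Tll1, the marker picked from these same cells. Timp2 stood at 513 against 600.

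Of 23 growth factors, 3 were higher and 2 lower (1.93% and 1.62% over all genes), and the median ratio was 0.96. Midkine (Mdk), the nearest relative of Ptn, stood at 218 CPM (206 to 231) against 61.5 and was found in 75.7% of thinned cells against 34.5% and 1.94% of mast cell barcodes, a far broader signal than that of Ptn. Igfbp3, a binding protein of insulin-like growth factors, stood at 95.3 against 44.7, with a ratio of 1.10 within the Matrigel tag alone and 5.36 without it. Igf1 stood at 31.4 (26.8 to 36.5) against 73.0 and Bdnf at 18.9 against 48.4. The stem cell factor gene Kitl and the macrophage growth factor gene Csf1, ligands for receptors of the mast cells and macrophages in the library, stood at 126 against 74.0 and 194 against 203.

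None of 15 inflammatory ligands was higher and 3 were lower (1.62% over all genes), and 14 of the 15 had ratios below 1. Those 3 were Cxcl13, Ccl8, at 24.3 CPM (20.3 to 28.9) against 78.2, and Il6, at 26.0 (21.9 to 30.7) against 61.8. The acute phase gene Saa3 was the most abundant, at 808 against 1553, with 53.1% of the group's UMIs in 3 cells and 21.0 CPM in the median cell against 114. None of 10 complement genes was higher, 2 were lower (1.62% over all genes), and all 10 had ratios below 1. The numbers lower were 6 of the ligands and 5 of the complement genes within the Matrigel tag alone, 2 and 1 without it, and 3 and 5 with Xist alone. C4b stood at 7.80 against 30.1 CPM, Cfb at 7.06 against 18.3 and C3 at 211 (199 to 224) against 341. C3 stood at 0.38 times the others' level within the Matrigel tag alone and 1.32 times without it.

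**Figure D5:**
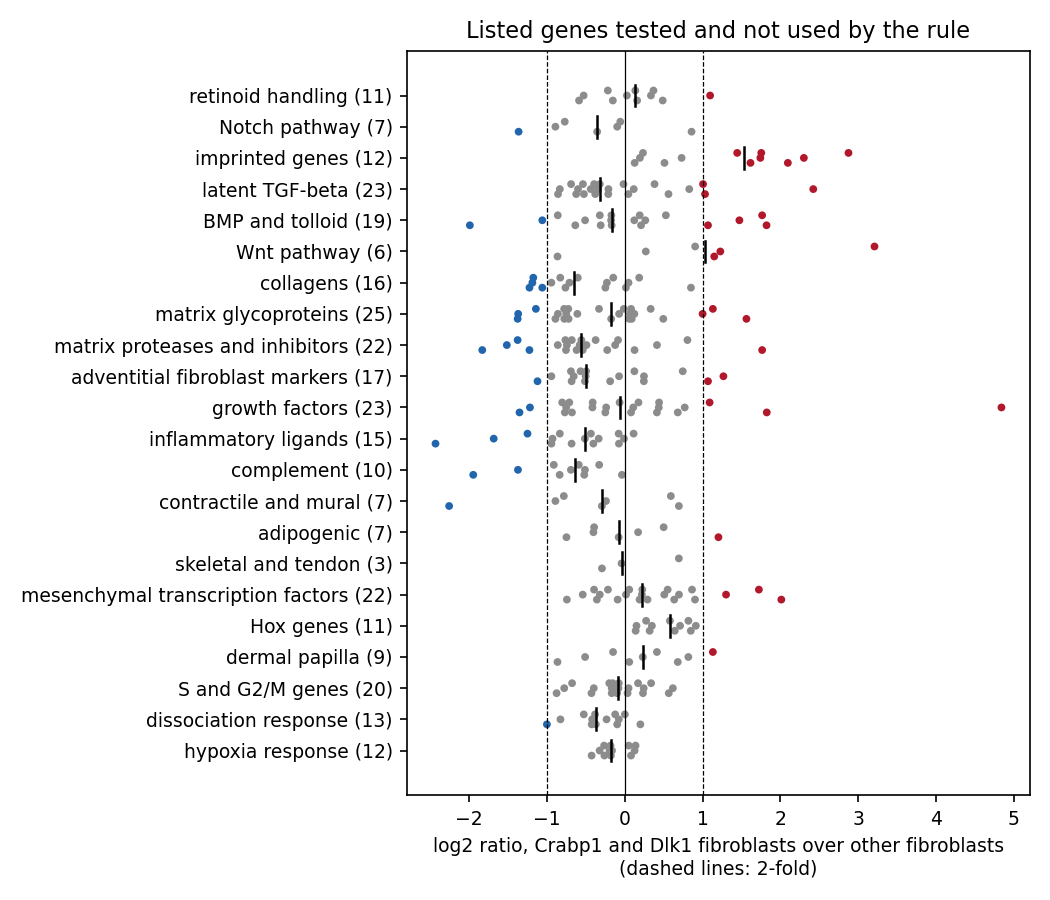
Each point is 1 gene of a list, placed by the log2 ratio of Crabp1 and Dlk1 fibroblasts over other fibroblasts (x axis); the y axis names the lists with the number of genes tested and not used by the rule, black bars are medians, dashed lines are 2-fold, and red and blue points lie past them. The imprinted genes lie furthest to the right, and all 10 complement genes lie left of 0.

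Of 22 mesenchymal transcription factors, 3 were higher (1.93% over all genes) and none lower. These were Meox1, at 23.2 CPM (19.3 to 27.7) against 5.75, Snai2, at 77.4 (70.2 to 85.2) against 23.4, and Prrx2, at 66.3 (59.6 to 73.5) against 26.9. Prrx1, its more abundant relative, stood at 544 against 371. None of 11 Hox genes passed 2-fold, though all 11 had ratios above 1, with a median of 1.495 and a top of 1.88 for Hoxb6. Within the Matrigel tag alone 1 Hox gene passed upward. The 11 tested Hox genes belong to the third to the eighth paralogue groups, among them Hoxa7 at 33.8 against 20.6 and Hoxc8 at 25.8 against 14.3.

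Of 7 adipogenic genes, 1 passed upward (1.93% over all genes). It was Pparg, the regulator of adipocyte differentiation, at 86.4 CPM (78.7 to 94.6) against 37.5, and Fabp4 stood at 685 against 484. Adipoq, limited by the rule, stood at 0.74 CPM and Plin1 at 0.19. Pparg stood at 510 CPM and Meg3 at 7.57 CPM in the 19 fibroblasts with 200 CPM or more of Adipoq. Of 17 adventitial fibroblast markers, Penk and Gdf10 were higher and Entpd2 lower (1.93% and 1.62% over all genes), while Pdgfra, at 197 against 166, and Cd34, at 25.6 against 15.3, did not pass and Pi16 was at 0.74 CPM. Beside Crabp1, 9 genes of the dermal papilla, the hair follicle mesenchyme, were tested, and 1, Vcan, passed upward (1.93% over all genes), but none without the Matrigel tag alone. Sox2, Sox18, Alx4 and Bmp4 had 0 UMIs. Of 7 contractile genes, 1, the potassium channel subunit gene Abcc9, passed downward (1.62% over all genes), at 8.17 against 39.1 CPM, 3 were lower without the Matrigel tag alone, and Acta2 stood at 15.97 against 27.5.

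None of 20 S and G2/M phase genes and none of 12 hypoxia genes passed 2-fold either way, which at 1.93% and 1.62% over all genes is no result about these lists. Of the phase genes 2 were lower within the Matrigel tag alone and 4 with Xist alone. Of the thinned cells, 12 of 136 (8.82%, 4.64 to 14.9%) had at least 3 of 6 proliferation genes, against 215 of 3146 (6.83%, 5.98 to 7.77%) of other fibroblasts, and without thinning the shares were 16.4% and 13.7%. The intervals overlap. Of 13 dissociation response genes 1, the heat shock gene Hspa1a, was lower, at 6.87 against 13.75 CPM.

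More genes passed 2-fold between Crabp1-only and Dlk1-only cells, where 1 side held 18 cells and counting error was larger. Of 8474 genes tested, 165 (1.95%) were higher and 466 (5.5%) lower in the 18 Crabp1-only cells than in the 124 Dlk1-only cells. The summed depth was 748460 UMIs against 4135380, and median depth per cell was 35755 against 31776. The count moved with the settings: thinning gave 1897 genes, a mean over cells 1134, and a limit of 400 CPM 1330.

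The imprinted genes divided along this line. In Crabp1-only cells none of the 12 was 2-fold above other fibroblasts and 1, Plagl1, was below, and in Dlk1-only cells 7 were above and none below. Over all tested genes, 2.78% were 2-fold above and 8.58% below in Crabp1-only cells. Meg3 stood at 500 CPM (450 to 553) in Crabp1-only cells, 1502 (1465 to 1540) in Dlk1-only cells and 480 in other fibroblasts. H19 stood at 178 (149 to 211), 699 (674 to 725) and 133, and Cdkn1c at 20.04 (11.2 to 33.1), 165 (153 to 178) and 26.7. Peg3 stood at 9.35 (3.76 to 19.3), 85.8 (77.1 to 95.3) and 9.92, and Plagl1 at 2.67 (0.32 to 9.65), 34.8 and 8.97. The Plagl1 level in Crabp1-only cells rested on 2 UMIs, and its interval holds the level of other fibroblasts. Rian, at 143 (117 to 173), 307 (291 to 325) and 82.1, was intermediate. In the 6 cells with both genes, Meg3 stood at 1068 CPM (956 to 1189) and H19 at 16.03. With Dlk1-only cells in place of all 152, 169 genes (1.97%) were higher and 132 (1.54%) lower than in other fibroblasts.

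Genes higher in Crabp1-only cells included S100a4, a calcium-binding protein gene of motile fibroblasts, at 778 against 125 CPM, though 57.2% of it lay in 3 cells. Lhx8, a LIM homeobox gene, had a UMI in 50.0% of the cells against 5.65% (20.04 against 2.90 CPM), Ly6k in 55.6% against 1.61% (36.1 against 1.94 CPM), and the adhesion receptor gene Adgrg6 in 55.6% against 8.87% (50.8 against 3.39 CPM). In the Crabp1-only cells, 3 cells held 76.3% of the Adgrg6 UMIs, 46.7% of those of Lhx8 and 44.4% of those of Ly6k. Tuft1, Zfp804b and Grin2a were carried by 3 or fewer cells, with 100% of their UMIs there. Snai2, at 148 (122 to 179) against 65.0 (57.5 to 73.3), was higher in Crabp1-only cells as well.

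Genes lower in Crabp1-only cells included tenascin C (Tnc), with 1 UMI, or 1.34 CPM, against 80.5 CPM, a ratio of 0.017 (0.00042 to 0.093). The mechanosensitive channel gene Piezo2 had no UMI against 72.3 CPM, at least 18.0-fold lower when 3 UMIs in the 18 cells are taken as the limit, and the exact upper limit of its ratio was 0.069. Tnfaip6, Capn6, Nptx1 and Olfr1260 had 1 UMI each. In Dlk1-only cells, 3 cells held 64.4% of the Tnfaip6 UMIs, 52.6% of those of Nptx1 and 50.5% of those of Piezo2. For Olfr1260, Tnc and Capn6 these shares were 42.1%, 34.2% and 29.6%. Ptn stood at 4.01 against 84.6 CPM, so that its high ratio rested on Dlk1-only cells, and Mdk at 81.5 (62.3 to 105) against 243 (228 to 259). Krt19 was the reverse, at 50.8 against 10.6 CPM. Agtr2 stood at 41.4 against 86.1 CPM, above other fibroblasts in both.

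The Y-linked genes Uty and Ddx3y were among the lowest, with 1 UMI each. Of the 18 Crabp1-only cells, 13 had Xist alone, none a Y-linked UMI alone, 2 both and 3 neither, against 70, 23, 25 and 6 of the 124 Dlk1-only cells. The Matrigel tag alone was called in 16 of the 18 (88.9%, 65.3 to 98.6%) and in 85 of the 124 (68.5%, 59.6 to 76.6%). The 18 cells thus lean to 1 tag and 1 sex-linked pattern, and the part of either in the differences above was not tested.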

How the data were processed

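The authors deposited raw UMI counts per gene and barcode for 1 library, which name Cell Ranger 7.0.0 in their headers (per the file headers); the submitters' processing notes also list STAR, R 4.1.3, Seurat 4.1.1 and mm10, with no roles. Annotation, intron counting and strand are not given in the sources used here. The 3 tag features stayed out of gene totals; the second library, of tags alone, was not used here. Counts were summed per group and scaled to CPM with python 3.11.15, numpy 2.4.6, scipy 1.17.1 and pandas 2.3.3. Intervals are exact at 95% (Poisson, Clopper-Pearson, and the binomial interval of a ratio). UMIs mark molecules, yet cells of 1 library are not replicates. Genes needed a mean of 10 CPM over both groups. Doublets called by Scrublet (scanpy 1.11.5, threshold 0.564) were kept, with an alternative without them. Thinning drew 10000 UMIs per cell without replacement (seed 1). Named genes were the rule's genes, the 15 highest and 15 lowest ratios (clone-type, mitochondrial and ribosomal protein names left out), up to 8 genes per list and the 10 highest and lowest between Crabp1-only and Dlk1-only cells, plus some for contrast chosen with values seen. The members, lists and marker names were chosen with earlier results of these data known. Listed symbols held by 2 gene identifiers (Ccl19, Aldoa) were left out. The scripts were tested on simulated sums that hold counting error only and no variation between cells. Alternatives were another limit, filter, depth, weighting, scaling and tag subset; those on Xist, on Dlk1-only cells and on the top 2% of cells were chosen after seeing the data. Values of some listed genes are not reported here.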

Additional observations from a re-analysis of the deposited data

How the results depend on the processing

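With 1 library, nothing here carries a test, and precision is set by the 152 cells and, for the Crabp1-only side, by 18. No paired analysis was possible because there is a single gene expression library. The share of fibroblasts in the group (4.25%) was 6.18% at a limit of 100 CPM and 2.21% at 400 CPM. The Matrigel tag share (72.4%) was 79.4% among cells with at least 10000 UMIs. It was 68.2% without the barcodes called by Scrublet, which kept 151 of the 152 cells. In both settings the tag backgrounds, and with them the limits of the calls, depend on the barcodes kept. Genes higher (165) numbered 264 with a filter of 5 CPM and 43 with 50 CPM, where more and fewer genes were tested. Genes lower (139) numbered 233 at a limit of 400 CPM and 45 with a filter of 50 CPM. Leaving out, for each gene, the 2% of cells with most UMIs gave 203 higher and 151 lower, and median-of-ratios scaling gave 154 and 147. Genes past 2-fold between Crabp1-only and Dlk1-only cells (631) numbered 1330 at 400 CPM, 1897 when thinned, 1134 as a mean over cells, 1114 with a filter of 5 CPM and 104 with 50 CPM. Outside the Matrigel tag alone that split had 2 Crabp1-only cells and was not run. The sign changes that follow are among the 15 highest and 15 lowest ratios. Without the Matrigel tag alone, the log2 ratio of Cxcl13 (0.29), the log2 ratio of Hbb-bs (0.41) and the log2 ratio of Col25a1 (-0.085) changed sign. That of Col25a1 (-0.074) did so with Xist alone, and that of Hbb-bs (0.0099) without the top 2% of cells. Genes outside these ratios changed sign too, such as Dio3os, with a ratio of 1.29 without the Matrigel tag alone in place of 0.73. The cause was not tested.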
